A study of Mus musculus with 8 samples.

Results

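The genes described here make up the machinery that folds collagen and other secreted proteins in the endoplasmic reticulum (ER), ships them out of it and answers when unfolded protein builds up. They are 38 genes chosen by function: 11 chaperones, 10 isomerases, 6 stress sensors and transcription factors, 4 targets of the transcription factor ATF4, 3 genes of ER-associated degradation and 4 of the secretory coat and export. Of the 38, 37 were on the array, each taken from its brightest probe set annotated to that symbol alone, among 18193 genes named on the array, and all 37 entered the tests, as did 11013 genes in all. Fkbp10, a collagen-binding isomerase of the ER, had no such probe set. RNA came from primary chondrocytes, the cartilage-forming cells, of rib cages of FVB embryos late in gestation (E18.5). Embryos from 4 litters were sorted by genotype into a wild type control pool and a Hoxd4 transgenic pool per litter, and each of the 8 pools was hybridised to 1 one-colour Affymetrix array. The sample titles number the biological replicates 1 to 4, and these numbers are taken here as those of the litters. A control and a transgenic pool of the same number are therefore treated as pools of the same litter. The promoter that drives the transgene, the line and the number of embryos per pool were not found in the labels.

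Collagen chains enter the ER as they are made, where the Hsp70-type chaperone BiP (Hspa5) and its partners hold them, disulphide isomerases and prolyl isomerases shape them, and HSP47 (Serpinh1) binds the finished triple helix. COPII coat proteins (Sec23a, Sec24d, Sec31a) and the cargo receptor TANGO1 (Mia3) then carry the bulky procollagen towards the Golgi. When unfolded protein accumulates, the sensors IRE1 (Ern1), PERK (Eif2ak3) and ATF6 (Atf6) start the unfolded protein response, in which ATF6 and XBP1 raise chaperone genes through the ER stress element, and PERK raises translation of ATF4. ATF4 is also raised by amino acid shortage and acts through amino acid response elements. Chondrocytes carry a high secretory load, and mutations that misfold cartilage collagens or block COPII export cause skeletal disease.

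The deposited values are MAS5 signals, a linear intensity per probe set, with the same trimmed mean of 500 on every array and a median between 100.5 and 115.1. Signals of different probe sets are not comparable, so levels are compared within a gene only. The 8 chondrocyte markers, among them Col2a1, Acan and Sox9, had signals between 3889 and 55563.5 on all arrays, and the ratio of 3′ to 5′ signal was 1.552 to 1.748 for actin and 0.6978 to 0.778 for Gapdh. The probe sets that name Hoxd4 are shared with Hoxd3, and whether they detect the transcript of the transgene is not known. On the brighter of them the signals in litters 1 to 4 were 27.3, 42.6, 4.1 and 256 in the control pools and 94.1, 415, 172 and 13 in the transgenic pools. These signals are dim, with means of 82.6 in control and 174 in transgenic pools, beside the cutoff of 105.9 for testing. The other such probe set had 8.92 to 48 and was not tested. The groups overlapped, and in litter 4 the pool labelled transgenic lay far below the pool labelled control. On this probe set the values of that litter go against its labels, but signals this dim cannot settle the labels. The genotype differences of the genes named below are therefore given for all 4 litters and again without litter 4, and control and transgenic are the names the pools were labelled with. Transcripts that mark sex also ran with genotype: the signal of the Y-linked gene Eif2s3y was 358 to 772 in the control pools and 813 to 1178 in the transgenic pools, without overlap. Xist, which marks female cells, had 5778, 9945, 13760 and 8098 in the control pools of litters 1 to 4 on its brightest probe set. In the transgenic pools it had 79.8, 3266, 47.2 and 8209, so its difference was not seen in litter 4. The part of sex in the genotype differences was not tested, and fewer cells of a type cannot be told apart from less RNA per cell in such pools.

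The promoters shown next are those of Hspa5 (BiP) and of Chac1 and Herpud1, which are described below for their differences between litters. They were picked because they hold a match to the DNA elements through which the unfolded protein response and ATF4 are known to act. RefSeq promoter sequences of GRCm38.p6, from 250 bases before to 50 after the start site, matched 34 of the 38 genes with 37 promoters, and Fkbp10, Atf6, Hyou1 and Manf were not matched. The bases before the start are printed 5′ to 3′ on the gene's strand, with matched elements in capitals. The stretches printed are chr2:119350992-119351241 for Chac1, chr8:94386179-94386428 for Herpud1 and chr2:34771840-34772089 for Hspa5, all on the plus strand.
Chac1: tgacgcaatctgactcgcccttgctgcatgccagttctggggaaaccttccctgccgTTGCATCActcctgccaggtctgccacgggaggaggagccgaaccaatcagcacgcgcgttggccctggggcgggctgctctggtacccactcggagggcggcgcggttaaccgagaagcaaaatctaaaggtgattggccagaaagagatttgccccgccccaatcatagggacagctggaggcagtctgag
Herpud1: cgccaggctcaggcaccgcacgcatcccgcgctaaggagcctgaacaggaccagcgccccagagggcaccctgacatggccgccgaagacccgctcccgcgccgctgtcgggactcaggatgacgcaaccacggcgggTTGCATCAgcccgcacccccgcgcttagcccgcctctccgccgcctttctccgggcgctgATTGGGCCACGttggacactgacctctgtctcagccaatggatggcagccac
Hspa5: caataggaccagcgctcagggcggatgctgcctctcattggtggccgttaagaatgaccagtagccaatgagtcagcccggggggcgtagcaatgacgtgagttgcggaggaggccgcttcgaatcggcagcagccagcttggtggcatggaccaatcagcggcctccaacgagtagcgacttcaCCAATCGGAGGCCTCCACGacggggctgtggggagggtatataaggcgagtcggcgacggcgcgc
The capitals in Chac1 are the amino acid response element core TTGCATCA at bases -193 to -186 (chr2:119351049-119351056). Those in Herpud1 are the same core at -112 to -105 (chr8:94386317-94386324) and ER stress element II, ATTGGNCCACG, at -52 to -42 (chr8:94386377-94386387). Those in Hspa5 are the ER stress element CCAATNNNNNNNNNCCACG at -65 to -47 (chr2:34772025-34772043). Both strands were searched, and overlaps with other elements were allowed.

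The ER stress element occurred in the promoters of 6 of these genes, in 16.2% of their 37 promoters against 0.119% of all 32851. The matches are set side by side below, each on its gene's strand, to show how the spacer of 9 bases differs while the ends stay fixed. In Calr and in the second match of Hsp90b1 the element lies on the opposite strand and reads CGTGG first.
Hspa5, -65 to -47: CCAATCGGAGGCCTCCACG
Calr, -162 to -144: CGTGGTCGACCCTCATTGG
Hsp90b1, -212 to -194: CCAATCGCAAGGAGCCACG
Hsp90b1, -107 to -89: CGTGGTGAGGCACGATTGG
Canx, -145 to -127: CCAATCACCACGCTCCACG
Pdia6, -98 to -80: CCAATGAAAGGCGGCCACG
Dnajc3, -105 to -87: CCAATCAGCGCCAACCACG
ER stress element II occurred in Herpud1 and Dnajb11 (5.41% of the 37 promoters, 0.0365% of all). The core TGACGTGG of the unfolded protein response element occurred in Sec23a and Sec24d (5.41% against 0.676%), and the amino acid response element core in Chac1 and Herpud1 (5.41% against 0.895%). These are matches of letters, not measured binding sites. The elements searched are ones known to act on genes of this kind, so their higher share describes the choice of genes and elements and was not tested.

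Between genotypes, no gene of the machinery passed the test. The comparison asks whether these transcripts differ in rib chondrocytes labelled transgenic for Hoxd4, a homeobox transcription factor that helps to pattern the vertebral column. It was fitted with limma on log2(signal + 32) over all 22518 tested probe sets with Benjamini-Hochberg adjustment. At an adjusted p under 0.05 the fit called 0% of all probe sets and 0 of the 37 genes, whose lowest adjusted p was 0.9997, or 0.839 with the litter as a block. The log2 differences, transgenic minus control, ran from -0.21 to 0.19 with a median of 0.027, beside 0.0029 over all probe sets. Positive values were found for 23 genes and negative ones for 14, which is 62.2% positive against 51.2% of all probe sets. The fit, which had no block for litter, bounded the size of change on the brightest probe sets and the log2(signal + 32) scale. For 34 of the 37 genes the whole 95% interval lay within 1.5-fold in either direction, the exceptions being Hyou1, Sdf2l1 and Chac1. Some other tested probe sets had intervals reaching beyond 1.5-fold without litter 4, among them ones of Fkbp11, Ern1 and Mia3. Without litter 4 the fit called 0.00888% of all probe sets and 0 of the 37 genes, with 25 positive and 12 negative differences, a median of 0.027 and 33 intervals within 1.5-fold, Trib3 being the added exception.

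**Figure D1:**
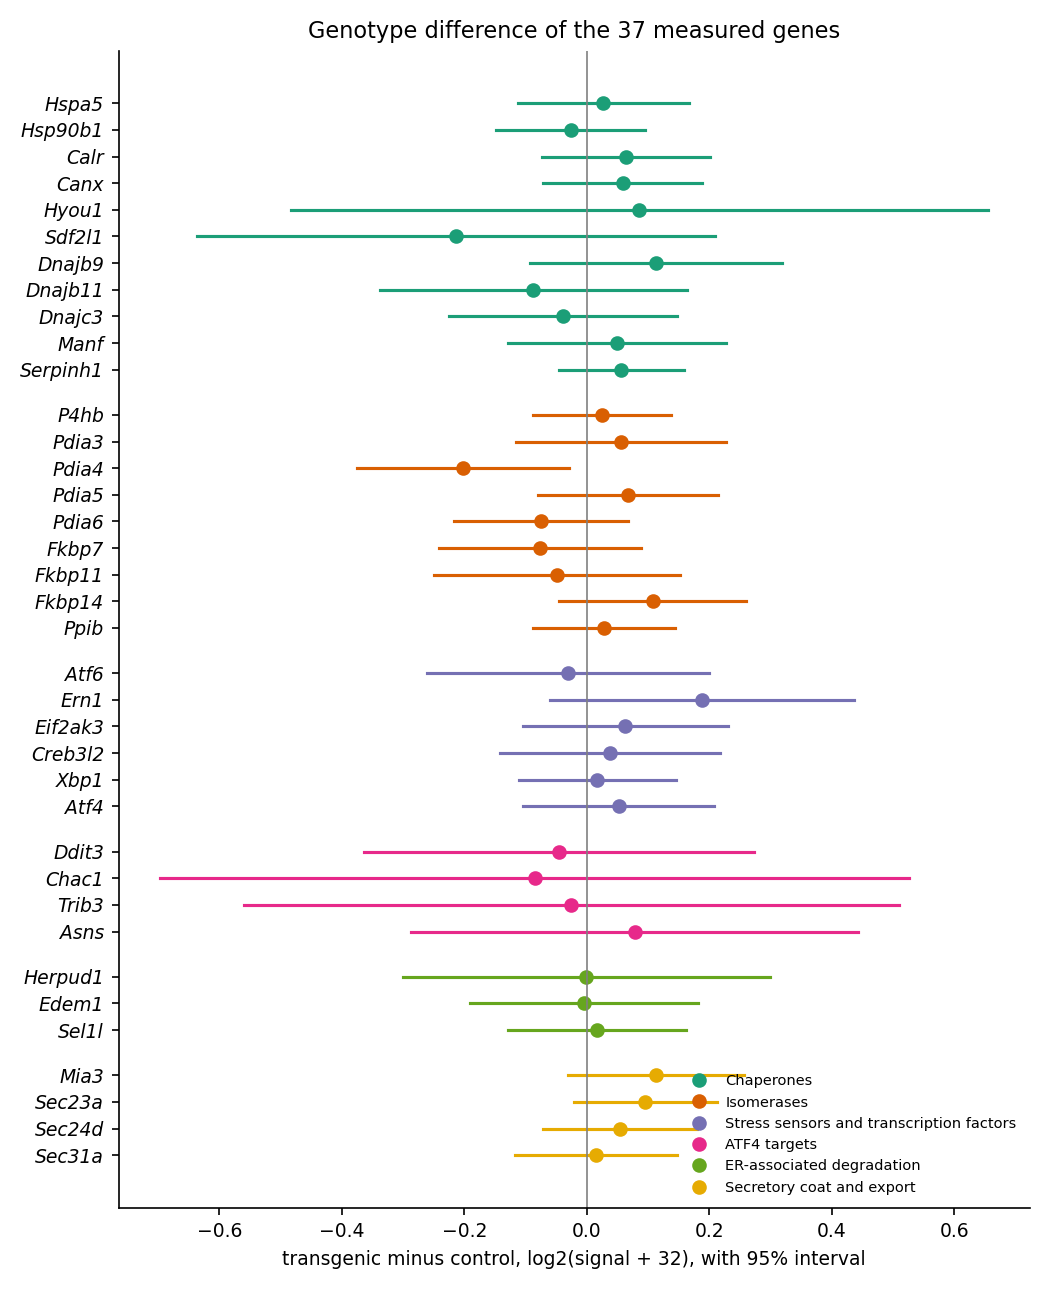
Log2 difference, transgenic minus control, of log2(signal + 32) for each of the 37 measured genes (points), coloured by functional class. Lines are the 95% intervals from limma without a litter block. All intervals except that of Pdia4 include 0, and the widest are those of Chac1, Hyou1 and Trib3.

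At an unadjusted limma p under 0.05, which 3.29% of all probe sets reached (5.54% with the litter as a block, 2.45% without litter 4), 1 of the 37 genes passed in each of these fits, and it was Pdia4. Signals of control and transgenic pools did not overlap for 3 of the 37, namely Pdia4, Sec23a and Serpinh1, beside 2.27% of all probe sets. Without litter 4 there were 6 (Pdia4, Sec23a, Serpinh1, Calr, Fkbp7 and Mia3), beside 7.53% of all. The transgenic pool had the greater signal in 4 of 4 litters for 5 genes (Sec23a, Serpinh1, Dnajb9, Canx and Manf), beside 6.83% of all, and the smaller one in 4 of 4 for 1 (Pdia4), beside 6.6%.

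Among the isomerases, Pdia4 (ERp72) is a disulphide isomerase with several thioredoxin-like domains. Its signals in litters 1 to 4 were 3348, 2743, 2890.2 and 2593 in the control pools and 2460.4, 2506, 2464 and 2571 in the transgenic pools. All 4 transgenic values lay below the lowest control value, by a margin that is small in litter 4. The means were 2894 ± 326 (SD, n = 4) and 2500.5 ± 51.4 (SD, n = 4), with a log2 difference of -0.20 (95% interval -0.37 to -0.03, limma unadjusted p = 0.0249, adjusted p = 0.9997, lower in 4 of 4 litters). Litter 1 weighs heavily: without it the log2 difference was -0.12 (interval -0.29 to 0.05, limma unadjusted p = 0.141), and without litter 4 it was -0.27 (interval -0.47 to -0.06). A second Pdia4 probe set, too dim to be tested in the fit and singled out after its values were seen, gave 23.9, 31.5, 37 and 40.7 in the control pools and 16.6, 7.53, 6.2 and 7.07 in the transgenic pools. These signals lie below the filter and are given as values only.

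The other isomerases gave small differences on their brightest probe sets. Pdia6, a disulphide isomerase that also binds IRE1, had signals of 7930.4, 6927, 6538 and 6946 in control and 6912, 6628, 6675 and 6637 in transgenic pools (log2 difference -0.07, interval -0.22 to 0.07, or -0.08 without litter 4). Only the control pool of litter 1 stood well above the rest. Fkbp14, a prolyl isomerase whose loss in humans causes a connective tissue disorder, had 8394, 6922, 7848 and 6928 in control and 8149, 8495, 7903 and 7785 in transgenic pools (log2 difference 0.11, interval -0.05 to 0.26, or 0.09 without litter 4). The mean of both Fkbp14 probe sets, one of them very dim, gave -0.11, so its direction depends on the probe sets used. P4hb, the disulphide isomerase that is also the beta subunit of collagen prolyl 4-hydroxylase, had 28852, 25768, 27727 and 26524 in control and 27934, 27977, 26879.7 and 27895 in transgenic pools, a log2 difference of 0.02 (interval -0.09 to 0.14), or 0.01 without litter 4. Its values overlapped fully. For Pdia3, Pdia5, Fkbp7, Fkbp11 and Ppib, the last of which forms the collagen 3-hydroxylation complex with Crtap and P3h1, log2 differences ran from -0.08 (Fkbp7) to 0.07 (Pdia5), or -0.15 to 0.08 without litter 4, and with all litters the groups overlapped. A second tested Fkbp11 probe set gave -1.06 without litter 4 (interval -1.79 to -0.33, limma unadjusted p = 0.00834, adjusted p = 0.9999). The brightest Fkbp11 probe set gave -0.04 without that litter. The second one was singled out after its values were seen, and its value with all litters is not given here. The size of the Fkbp11 difference without litter 4 depends on the probe set.

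Of the chaperones, Serpinh1 (HSP47), which binds procollagen triple helices, had signals of 31003, 30663, 30928 and 30867 in control and 31327, 31869, 31678 and 33576 in transgenic pools. The groups did not overlap, but the log2 difference was only 0.06 (interval -0.05 to 0.16, limma unadjusted p = 0.254, adjusted p = 0.9997), or 0.04 without litter 4. A second probe set of Serpinh1 spread from 14803 to 25225 with overlapping groups, so the close agreement of the brightest probe set within each group was not shared by the other. That second probe set was called for differences between litters (limma adjusted p = 0.0154), a comparison described further on, and it was singled out after its values were seen.

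Hspa5 (BiP), the most widely used gauge of ER stress, had 26699.5, 22071, 25411 and 25379.9 in control and 25768, 24269.5, 24401 and 26845 in transgenic pools. Its highest value exceeded its lowest by 1.22-fold over all 8 pools, and the log2 difference was 0.03 (interval -0.11 to 0.17), or 0.01 without litter 4. Hsp90b1 (GRP94), the ER form of Hsp90, had 14149, 14792, 14745 and 15968 in control and 15376, 14508, 14026 and 14631 in transgenic pools, a log2 difference of -0.03 (interval -0.15 to 0.10), or 0.01 without litter 4. Calr, a lectin chaperone that also stores calcium, had 13549, 13538, 12714 and 15182 in control and 14113, 14808, 13577 and 14901 in transgenic pools (log2 difference 0.06, interval -0.07 to 0.20, or 0.09 without litter 4). In all 3 of these abundant chaperones the genotypes overlapped.

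Dnajb9 (ERdj4), a co-chaperone that presents misfolded clients to BiP and is induced through XBP1, had signals of 2869.6, 2950.3, 2717 and 3497 in control and 3167, 3110.5, 2925 and 3831 in transgenic pools. The transgenic pool was above its littermate control in 4 of 4 litters, with a log2 difference of 0.11 (interval -0.09 to 0.32), or 0.11 without litter 4. Sdf2l1, a partner of ERdj3 that keeps clients from aggregating, had 406, 238, 349 and 390.4 in control and 304, 318, 187 and 376 in transgenic pools. Its difference was -0.21, with a wide interval of -0.64 to 0.21, or -0.27 without litter 4. The transgenic pool of litter 3 lay below all others and decides the value, which was -0.03 without that pool. For Canx, Hyou1, Dnajb11, Dnajc3 and Manf the differences ran from -0.09 (Dnajb11) to 0.09 (Hyou1), or -0.13 to 0.10 without litter 4, with overlap in each.

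The stress sensors gave no difference that passed. Ern1, the kinase and nuclease IRE1 that splices Xbp1 mRNA, had 424, 506, 427 and 377 in control and 443, 488, 497 and 562 in transgenic pools, a log2 difference of 0.19 (interval -0.06 to 0.44, limma unadjusted p = 0.126, adjusted p = 0.9997). Control litter 4 was lowest and transgenic litter 4 highest, and without that litter the difference was 0.07. The 2 further Ern1 probe sets that were tested gave 0.38 and -0.24, or 0.59 and -0.56 without litter 4. Eif2ak3, the kinase PERK, had 2476, 2443, 2310.5 and 2349 in control and 2373, 2889, 2390.2 and 2391 in transgenic pools. Transgenic litter 2 stood above the other 7 pools, which lay between 2310.5 and 2476. Atf6, a membrane-held transcription factor that is cut loose under stress, had 439.6, 425, 407 and 497 in control and 403, 481, 421 and 423 in transgenic pools, with complete overlap (log2 difference -0.03, interval -0.26 to 0.20, or 0.03 without litter 4).

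Xbp1 encodes the factor that IRE1 activates by splicing; the splicing itself was not measured here. Its signals were 14795, 13226, 13237 and 13935 in control and 14623, 14106, 13044 and 14069 in transgenic pools (log2 difference 0.02, interval -0.11 to 0.14, or 0.02 without litter 4). Atf4, controlled largely at translation, had 16945, 13365, 15671 and 14001 in control and 15851, 16116, 14951 and 15028 in transgenic pools (log2 difference 0.05, interval -0.10 to 0.21, or 0.04 without litter 4). Creb3l2 (BBF2H7), which in mouse chondrocytes drives Sec23a, had 3445, 3364, 3210.1 and 3119.8 in control and 3916, 3505, 3039.9 and 3091 in transgenic pools (log2 difference 0.04, interval -0.14 to 0.22, or 0.05 without litter 4). In these 3 factors the groups overlapped and the highest pool of each belonged to litter 1.

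All 4 genes of the secretory coat and export gave positive differences, with a median of 0.075 (0.068 without litter 4), but none passed the test and all 4 are reported as values. Sec23a, the COPII coat subunit mutated in humans with cranio-lenticulo-sutural dysplasia, had signals of 8587, 8386, 8595 and 8408 in control and 8667, 9417, 9011 and 9236 in transgenic pools. The groups did not overlap, and the log2 difference was 0.10 (interval -0.02 to 0.21, limma unadjusted p = 0.099, adjusted p = 0.9997), or 0.08 without litter 4. Sec24d, which selects cargo for the coat, had 5449, 5784, 5831 and 5980.1 in control and 5833, 6048, 5824 and 6221 in transgenic pools (log2 difference 0.05, interval -0.07 to 0.18, or 0.05 without litter 4). Its control litter 1 was low and the other 7 pools lay close together. Sec31a, the outer coat subunit, ranged from 4253 to 4689 with a difference of 0.02, or 0.02 without litter 4.

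Mia3 (TANGO1), the receptor that ties procollagen to the COPII coat, had 2903, 2818, 3078 and 3129 in control and 3204, 3413, 3226 and 3062 in transgenic pools (log2 difference 0.11, interval -0.03 to 0.26, or 0.16 without litter 4). That probe set is of a kind that may bind several transcripts. Of its 2 other tested probe sets, 1 gave 1059, 1048, 1089 and 1149 in control and 1592, 1331, 1383 and 1331 in transgenic pools. On that probe set all transgenic values lay above all control values, with a log2 difference of 0.36 (interval 0.18 to 0.54, limma unadjusted p = 6.92e-04, adjusted p = 0.9997), or 0.42 without litter 4. It stands for Mia3 when probe sets that may bind several transcripts are left out, which moves the value of the gene from 0.11 to 0.36. The remaining one gave -0.05, or 0.02 without litter 4, so the size of the Mia3 difference, and with all litters its direction, depends on the probe set. Over all genes with another tested probe set, 22 of 36 such probe sets had the direction of the brightest one. An unadjusted limma p under 0.05 was reached by 2 of the 36, beside 3.29% of all probe sets.

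**Figure D2:**
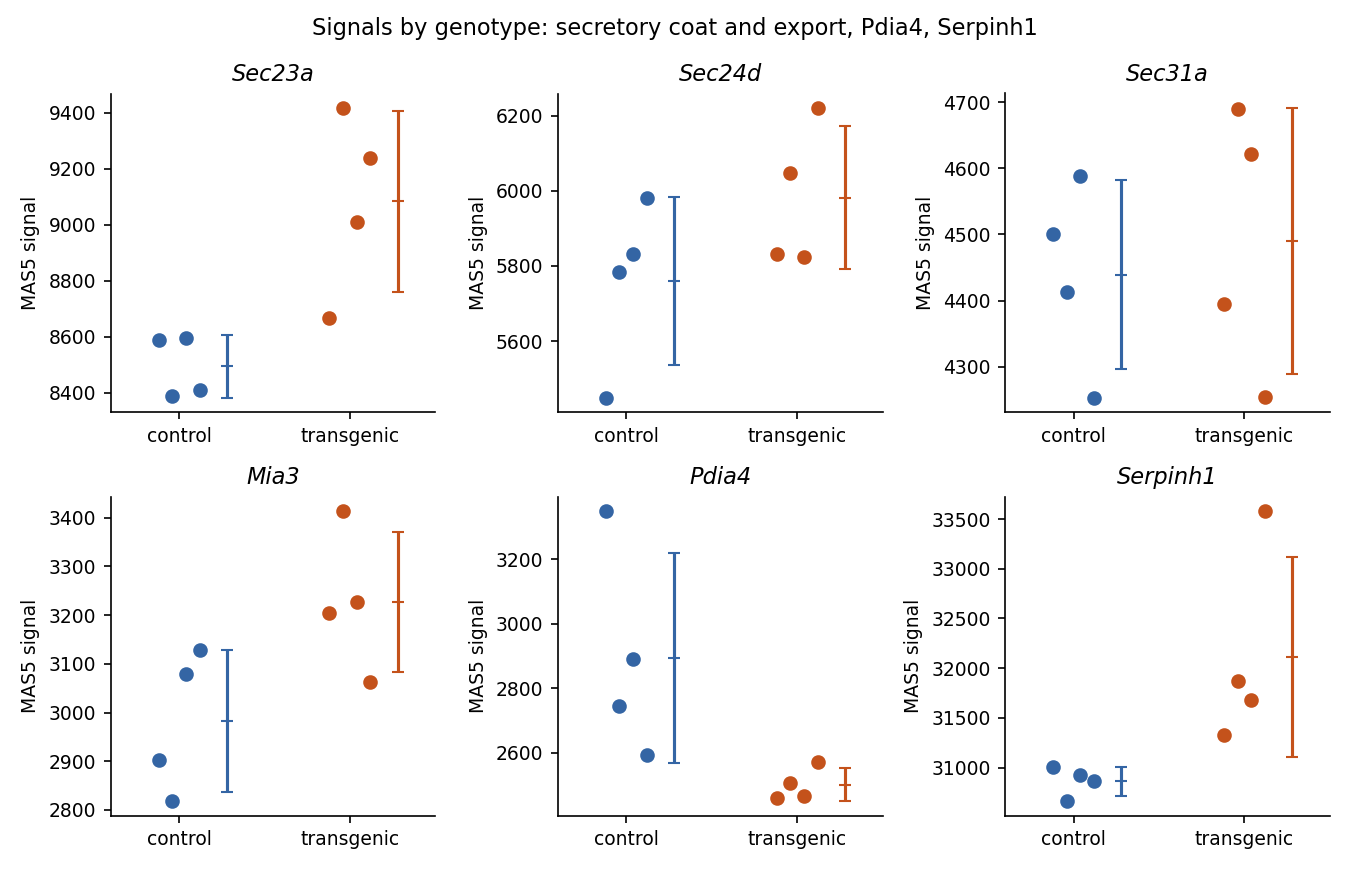
MAS5 signal of 6 genes in the 4 control (blue) and 4 transgenic (orange) pools, one point per pool, with mean and SD beside the points; the vertical axes do not start at 0. Control and transgenic points do not overlap for Sec23a, Pdia4 and Serpinh1 and overlap for Sec24d, Sec31a and Mia3.

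Between litters, Chac1 and Asns, both ATF4 targets, and Herpud1 differed, with the high litters the same in both genotypes. This comparison was chosen after their values were seen: the litter term of a limma fit with genotype and litter was tested by its F statistic over all probe sets, and with 2 pools per litter, p-values measure the spread within litters only. Litter and anything handled litter by litter cannot be told apart. At an adjusted p under 0.05 it called 0.484% of all probe sets and 3 of the 37 genes, which were Chac1, Asns and Herpud1. An unadjusted p under 0.05 was reached by 14.6% of all probe sets and by 11 of the 37 genes, a share of 29.7%. Of these 11, 9 were highest in litter 1 and 2 in litter 4, whereas litter 1 was the highest for 26.7% of all such probe sets.

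Chac1 degrades glutathione and is induced through ATF4 under ER stress and amino acid shortage. Its signals in litters 1 to 4 were 2212, 964, 745 and 1274 in the control pools and 1749, 845, 832 and 1295 in the transgenic pools. Both pools of litter 1 were highest and both of litter 4 came next, above all 4 pools of litters 2 and 3. The mean of litter 1 exceeded that of litter 3 by 2.44-fold on the log2(signal + 32) scale, on which all folds between litters are given (limma adjusted p = 0.00325 for the litters), while the genotype difference was -0.09 (interval -0.70 to 0.53), or -0.12 without litter 4.

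Asns, which makes asparagine, had 2911, 1656, 1923 and 2481 in control and 2697, 1869.9, 1972 and 2883 in transgenic pools. Litters 1 and 4 were high and litters 2 and 3 low in both genotypes, with 1.58-fold between litters 1 and 2 (limma adjusted p = 0.018). A second Asns probe set repeated this order of high and low litters, with 2193, 1365, 1416 and 1979 in control and 1988, 1284, 1249.5 and 2129.97 in transgenic pools (limma adjusted p = 0.0115).

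Herpud1, an ER membrane protein that helps to assemble the degradation complex, had 5943, 3931, 3571 and 3852 in control and 5091, 4105, 3670.2 and 4187 in transgenic pools. Here litter 1 alone stood out, 1.51-fold above litter 3 (limma adjusted p = 0.0445), and the genotype difference was -0.00045, or -0.04 without litter 4. Its second probe set was also highest in litter 1 in both genotypes, with an adjusted p of 0.0743 that missed the threshold. The promoters of Chac1 and Herpud1 are those printed above, which both hold the amino acid response element core. The promoters of Asns, Trib3 and Ddit3 were searched too and held no match to any of the 4 elements in this window.

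Trib3, a pseudokinase that restrains ATF4 and CHOP, had 593, 198, 282 and 425 in control and 397, 285, 288 and 408 in transgenic pools. Its litter means had the same pair of high litters, 1 and 4, with 1.92-fold between litters 1 and 2 on the log2(signal + 32) scale, but the adjusted limma p of 0.13 did not pass. Ddit3, which encodes CHOP, a transcription factor linked to cell death under lasting stress, had 1682, 1319, 1263 and 997 in control and 1362, 1544, 1062 and 1099 in transgenic pools. Its litter order was different, with litter 4 lowest, and its adjusted p was 0.176. Atf4 mRNA itself had an adjusted p of 0.567, and the signal of its highest pool was 1.27-fold that of its lowest, against 2.97-fold for Chac1 and 3-fold for Trib3. A second Atf4 probe set was highest in litter 1 in both genotypes, with 5833, 5008, 4918 and 5466 in control and 6144, 4968, 4915 and 4772 in transgenic pools (limma unadjusted p = 0.0166 for the litters, adjusted p = 0.237).

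**Figure D3:**
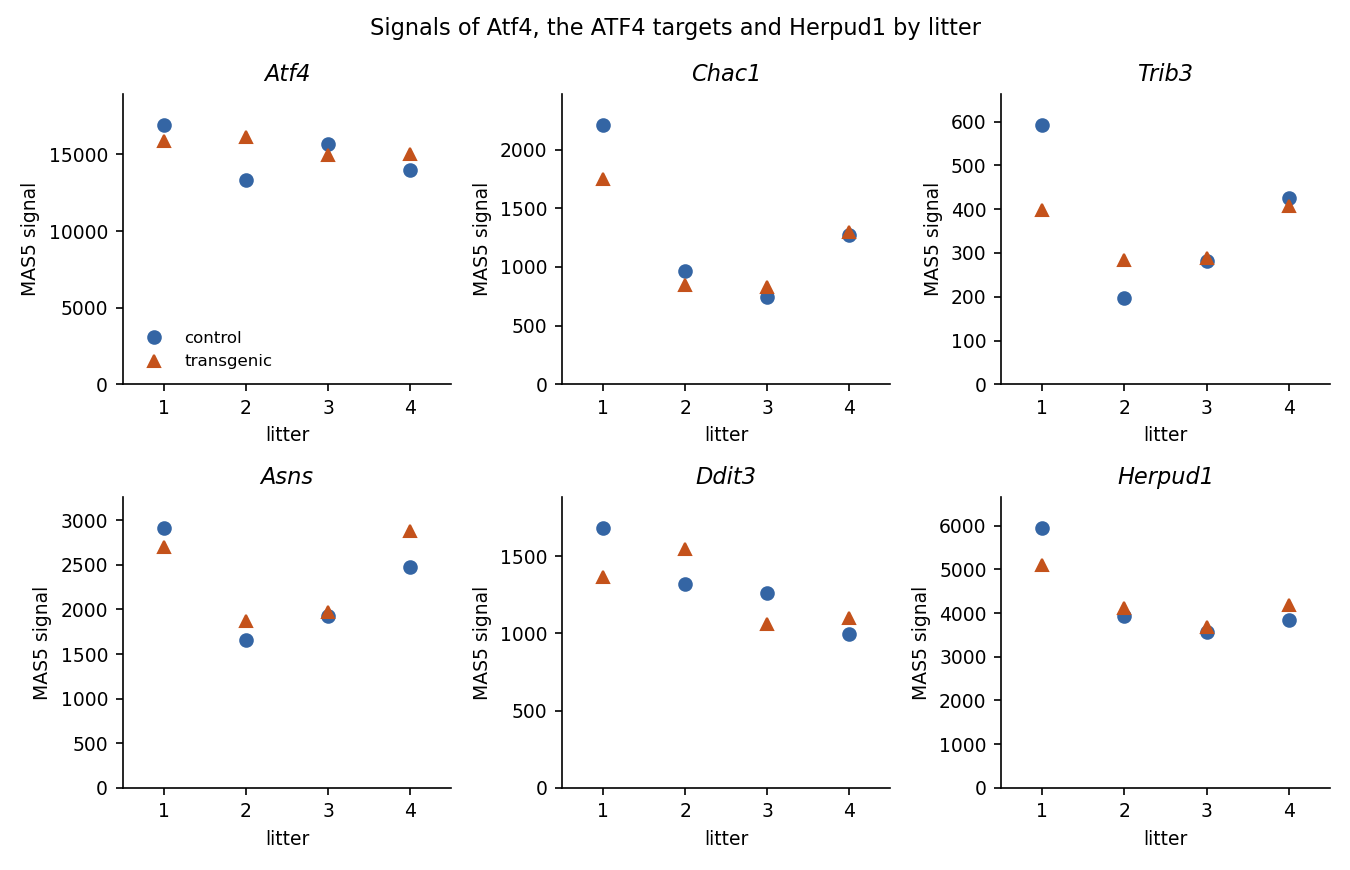
MAS5 signal (vertical axes from 0) of Atf4, 4 ATF4 targets and Herpud1 by litter, with control pools as blue circles and transgenic pools as orange triangles. In Chac1, Trib3 and Asns both pools of litters 1 and 4 lie above both pools of litters 2 and 3, and in Herpud1 both pools of litter 1 lie above the other 6.

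These litter calls rest on litter 1. Without both its pools 0 of the 37 genes were called (beside 0.0444% of all probe sets), 8 had an unadjusted limma p under 0.05 (beside 9.33% of all), and the adjusted p-values of Chac1, Asns and Herpud1 were 0.187, 0.134 and 0.629. Without the control pool of litter 1 alone 0 genes were called as well. Leaving out the control or transgenic pool of another litter kept Chac1 called each time, and leaving out litter 3 called 4 genes, Hyou1 being the added one. Herpud1 was no longer called when any 1 of the 8 pools was left out, with adjusted p-values of 0.052 to 0.35, and Asns when the control pool of litter 1 or 2, the transgenic pool of litter 1 or 4, or both pools of litter 1 or 2 were left out. Chac1 stayed called under every scaling, filter and probe set choice tried and Asns under all but the absence of a filter. Herpud1 was lost without the filter, after quantile normalization and when its probe sets were averaged.

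Among the other genes, an unadjusted limma p under 0.05 for the litters was found for the chaperones Hyou1, Dnajb9, Dnajb11 and Manf, the isomerase Fkbp11 and the factor Creb3l2, with adjusted p-values between 0.119 and 0.334. Hyou1, an exchange factor for BiP, spread the most of these, from 571 in control litter 2 to 1359 in transgenic litter 1. Control and transgenic pools of litters 1 and 3 differed widely for it. The 4 genes of the coat and export varied the least of the classes: the median SD over the 8 pools was 0.059 on the log2 scale for them, 0.125 for the chaperones, 0.113 for the isomerases, 0.106 for the sensors and factors, 0.0996 for the degradation genes and 0.380 for the ATF4 targets, beside 0.174 over all tested probe sets.

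**Figure D4:**
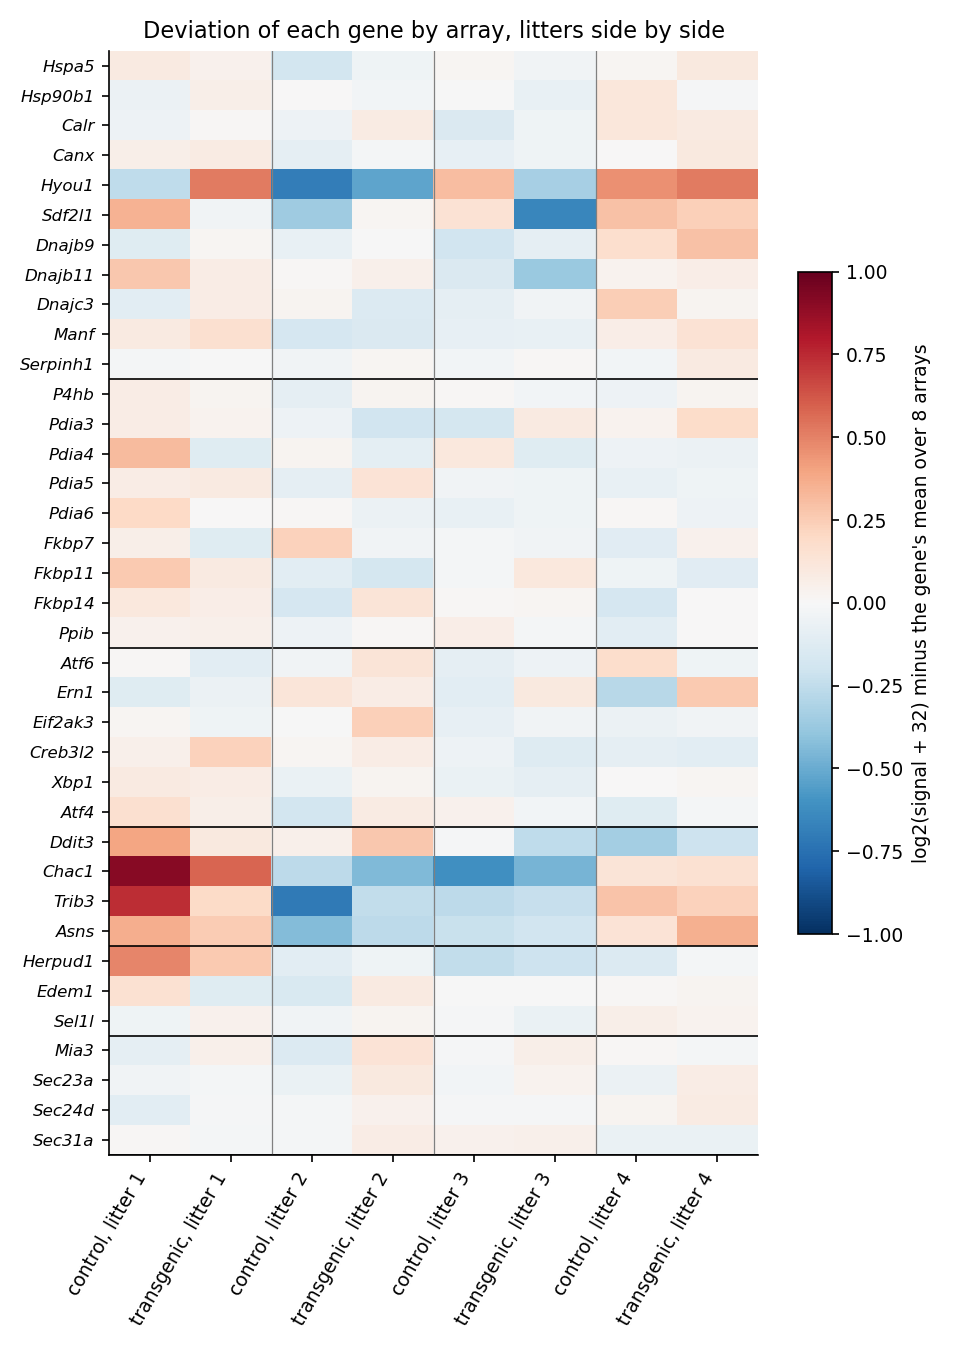
Deviation of log2(signal + 32) from the gene's mean over the 8 pools, one row per gene and one column per pool with the pools of a litter side by side; black lines separate the functional classes. Chac1, Trib3, Asns and Herpud1 are red in both pools of litter 1, and the coat genes at the bottom are pale throughout.

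Markers of other cell types in the rib digest ran with the litters too. The summed signal of the 4 macrophage markers, 3 of them tested, was lowest in litter 1, with 473 in its control and 529 in its transgenic pool, and reached 1531 in control litter 2. The 3 tested erythroid markers summed to 6397 and 5349 in litter 1 and to 13726 in control litter 3, and Hbb-b2 and Alas2 were called for the litters, with limma adjusted p-values of 0.00248 and 0.00325. Litter 1 also held the lowest sums of the 4 skeletal muscle markers (6436 and 6452) and of the 4 fibroblast and perichondrium markers (104491 and 103817), while the 8 chondrocyte markers summed to 240770 and 225047 there, within their range of 221931 to 253401 over all pools.

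A MAS5 signal above 0 does not by itself show that a cell type was present, and Cd68, Jchain and Mzb1 lay below the filter. Over groups, the summed signals were 473 to 1531 in control and 529 to 1393 in transgenic pools for macrophages, 6397 to 13726 and 5349 to 10672 for erythroid cells, 6436 to 10149 and 6452 to 10539.5 for muscle and 104491 to 121781 and 103817 to 127954 for fibroblasts and perichondrium. The 4 endothelial markers summed to 919.7 to 1417 in control and 803 to 1059 in transgenic pools, the 3 osteoblast markers to 1909 to 2381 and 1653 to 2071. The 3 plasma cell markers summed to 2349 to 3241 over all pools, nearly all of it from Sdc1 (2211 to 3059.6), the only one bright enough to be tested. Genes linked to dissociation (Fos, Jun, Egr1, Klf4) summed to 69139.5 to 74589.7 in control and 66504 to 79976 in transgenic pools, and heat shock genes to 29509.5 to 35461 and 27289.8 to 31605. Between genotypes 0 of the 38 tested markers were called. In the fit without a block 3 had an unadjusted limma p under 0.05, beside 3.29% of all probe sets. The endothelial cadherin Cdh5 gave a log2 difference of -0.60 (interval -0.94 to -0.27, limma unadjusted p = 0.00176, adjusted p = 0.9997) and was lower in 4 of 4 litters. The other endothelial markers Kdr, Egfl7 and Pecam1 gave -0.23, -0.30 and 0.02, each with an interval that included 0. The alkaline phosphatase Alpl of osteoblasts gave -0.31 (interval -0.51 to -0.12, limma unadjusted p = 0.00386, adjusted p = 0.9997) and was also lower in 4 of 4. Klf4 gave 0.29 (interval 0.05 to 0.53, limma unadjusted p = 0.0204, adjusted p = 0.9997) and was higher in 3 of 4. Without litter 4 Cdh5, Alpl and Klf4 had -0.50, -0.35 and 0.40. With all litters each of Cdh5, Alpl and Klf4 differed more than any of the 37 genes on its brightest probe set. With the litter as a block, 5.54% of all probe sets had an unadjusted limma p under 0.05. Among the markers these also included Hbb-b2, Alas2, Slc4a1, Ckm, Hspa1b and Dnajb1, with blocked adjusted p-values of 0.70 or more. The erythroid markers Hbb-b2, Alas2 and Slc4a1 had log2 differences of -0.24, -0.28 and -0.31, each lower in 4 of 4 litters. Ckm gave 0.37, Hspa1b -0.11 and Dnajb1 -0.13. The part of the markers in the litter and genotype differences was not tested.

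Of the pairs of genes chosen by role, with earlier results of these data known, 13 could be computed. Their p-values are therefore not a test of pairs set before any results were seen. Across the 8 pools, Trib3 and Asns varied together, with Pearson's r = 0.93 (exact permutation p = 0.0026, Benjamini-Hochberg adjusted p = 0.034 over 13 pairs) and Spearman's rho = 0.90 (exact p = 0.0046, adjusted p = 0.059). Without the 2 pools farthest from the median of Trib3, both of them control pools, r was 0.94. Pools of a litter are not independent, which the permutation test does not take into account. Within litters, as deviations from the litter means, r was 0.60, against 0.93 over all pools. With 2 pools per litter, these deviations still hold any genotype difference.

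Trib3 and Chac1 gave r = 0.83 (exact permutation p = 0.0089, adjusted p = 0.058) and rho = 0.74 (exact p = 0.046, adjusted p = 0.30), with r = 0.90 without the 2 farthest pools and 0.34 within litters. The pair therefore missed the threshold. Hspa5 and Sdf2l1 came next, with r = 0.69 (exact permutation p = 0.062, adjusted p = 0.27), rho = 0.62, 0.66 without the 2 farthest pools and 0.67 within litters. The other 10 pairs had r between -0.09 and 0.56, and adjusted p-values of 0.50 or more in the exact permutation test. Among them, BiP and GRP94, often raised together under ER stress, gave r = 0.03, and Ddit3 gave 0.15 with Trib3 and 0.33 with Chac1.

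**Figure D5:**
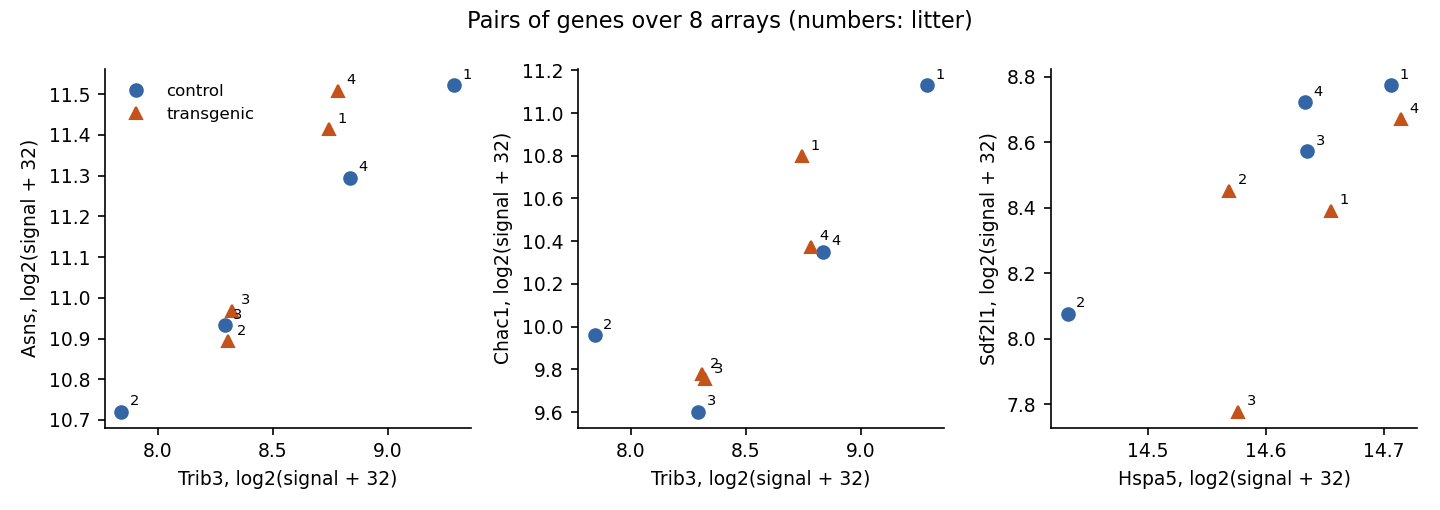
Log2(signal + 32) of Trib3 against Asns, Trib3 against Chac1 and Hspa5 against Sdf2l1, one point per pool (blue circles control, orange triangles transgenic), numbered by litter. The points rise together in the first panel (r = 0.93), with litters 1 and 4 at the upper right and litters 2 and 3 at the lower left.

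Over whole classes, the median r between genes was 0.58 for the 6 pairs of ATF4 targets, 0.44 for the 55 pairs of chaperones, 0.44 for the 6 pairs of the coat and export, 0.26 for the 36 pairs of isomerases, 0.24 for the 15 pairs of sensors and factors and 0.0048 for the 3 pairs of degradation genes, beside 0.0016 over all pairs of 11013 tested genes. These are descriptions, and pairs that share a gene or a litter are not independent. As deviations from the litter means, the chaperone median was 0.04 and that of the ATF4 targets 0.47, while the coat genes had 0.67. With 2 pools per litter, such deviations carry only the transgenic minus control difference of each litter. Genes that share a genotype difference therefore correlate in them. As deviations from the genotype means, the coat genes had a median of 0.25, below their value over all pools. The chaperone median was then above its value over all pools, and that of the ATF4 targets was nearly unchanged. With no means taken off, the ATF4 targets had 0.05 without litter 1. Between classes, ATF4 targets had a median r of 0.44 with the isomerases, 0.31 with the chaperones and -0.18 with the coat genes.

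The wider pathway was read from 4 further lists of 61 genes, of which 57 were tested. None was called between genotypes, 34 had positive and 23 negative differences, and the median was 0.0083. Without litter 4 they split into 28 and 29, with a median of -0.0034. With an unadjusted limma p under 0.05 there was 1 of 57, beside 3.29% of all probe sets, so the share was not above that of all probe sets. It was Sec24a, another cargo-selecting subunit of the COPII coat. Its signals were 3049, 2711, 2931 and 3127 in control and 3626, 3457, 3261 and 3476 in transgenic pools. The groups did not overlap, and the transgenic pool had the greater signal in 4 of 4 litters. The log2 difference was 0.22 (interval 0.08 to 0.37, limma unadjusted p = 0.0058, adjusted p = 0.9997), or 0.25 without litter 4.

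By list, collagen and ER folding had 11 positive and 5 negative of 16 tested, with the smallest p-values for Dnajc10 (0.05), Txndc5 (0.06), Ero1b (-0.19) and P3h1 (0.05). ER translocation and degradation had 10 and 3 of 13, led by Derl3 (-0.40, interval -0.91 to 0.10), Edem3 (0.07), Syvn1 (0.09) and Ssr3 (0.05). Regulators of the unfolded protein response and further ATF4 targets had 6 and 9 of 15, led by Nfe2l2 (-0.10), Slc7a5 (-0.20), Creb3l1 (-0.15) and Cth (0.15). ER export had 7 and 6 of 13, with Surf4 (-0.11), Sec13 (0.10) and Sec24b (-0.10) after Sec24a. All values are log2 differences that did not pass. Without litter 4 the 4 lists had 9 and 7, 6 and 7, 5 and 10, and 8 and 5 in the same order, and Derl3 had -0.23.

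Between litters, 0 of the 57 were called and 16 had an unadjusted limma p under 0.05, a share of 28.1% beside 14.6% of all probe sets. Of the 16, 13 were highest in litter 1, beside 26.7% of all such probe sets, and 8 were lowest in litter 4. The list with regulators and further ATF4 targets held 8 of them among its 15 tested genes. The smallest adjusted p was that of Lman1, a cargo receptor between ER and Golgi, at 0.0671 (limma). It had 10585, 8355, 8729 and 8190.4 in control and 10387, 8447, 8839.7 and 7330.2 in transgenic pools, with litter 1 highest and litter 4 lowest in both genotypes. Phgdh, which starts serine synthesis, had 2621, 1969, 2297 and 2691 in control and 2456, 2017, 2228 and 2793 in transgenic pools, with litters 1 and 4 again above litters 2 and 3 in both genotypes (adjusted p = 0.0837, limma). Psat1, the next enzyme of that pathway, had 2332, 1546, 1749 and 2103 in control and 2186, 1908, 1472 and 2032 in transgenic pools (adjusted p = 0.154). Sesn2, a stress-induced regulator of mTOR signaling, had 385, 146, 27 and 106 in control and 195, 93.7, 63.9 and 153 in transgenic pools (adjusted p = 0.0938), with litter 1 highest in both genotypes. Vegfa, an angiogenic factor that is also an ATF4 target, had an adjusted p of 0.102, with litter 1 highest and litter 4 lowest in both genotypes.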

How the data were processed

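The authors deposited 1 linear intensity per probe set and array. Per the submitters' processing notes these are MAS5 signals, of a version not given in the sources used here. Of 45101 probe sets, 64 manufacturer controls were dropped without further normalization, and the other 45037 were turned to log2(signal + 32), 32 being the arrays' median of the 25th percentile. The added constant makes fold changes of dim probe sets smaller. Probe sets with a mean above the median (105.9) were tested, which kept 22518. Genes were named through GEO's platform annotation, with symbols looked up in RefSeq (0 changed); 34945 probe sets had 1 symbol, 932 several and 9160 none.

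Genotype differences were fitted on all 8 arrays in limma 3.58.1 (R 4.3.3; lmFit, eBayes with trend), and p-values were adjusted by Benjamini-Hochberg over the 22518. The litter, read from the replicate number, pairs the pools by design. Deviations of pools of the same number correlated at 0.28, 0.17, 0.04 and 0.14 over probe sets, against a mean of -0.05 between different numbers. The fit had no block, and the genotype intervals and p-values of single genes come from it unless a block is named. Of the blocked fit only the calls, the lowest adjusted p of the genes, the unadjusted shares and some markers are given. The 38 genes, the pathway lists, the markers and the pairs were chosen with earlier results of these data known, and the litter test was added after values were seen. Signals on all arrays are printed for the 10 genes with the smallest p, the genes in the pairs, and all sensors and ATF4 targets; of each pathway list the 4 with the smallest p are named. Correlations were tested over all 40320 orders of the arrays. The fits and the correlation test were tested on simulated data. The number of arrays, 4 per group, limits the precision, and nothing gives the embryos per pool. Figures were drawn with matplotlib 3.10.9.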

Additional observations from a re-analysis of the deposited data

Results flagged for a closer look

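Of the 74 groups of 4 pools (37 genes in each genotype), 5 held a pool far from the other 3 by Dixon's criterion, which chance meets in about 1 of 20 groups; the values are given without explanation. Dnajb11 had 864 in transgenic litter 3 against 1165 to 1187 in the other transgenic pools. P4hb had 26879.7 there against 27895 to 27977, and Sel1l had 1951 there against 2088 to 2108. Pdia6 had 6912 in transgenic litter 1 against 6628 to 6675. Eif2ak3 had 2889 in transgenic litter 2 against 2373 to 2391. All 5 were in transgenic pools, and 3 of them in litter 3.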

How the results depend on the processing

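Between genotypes, 0 of the 37 genes were called under every alternative run: litter as a fixed or random replicate block (0 called in each), a pseudocount of 16 or 64, no filter, quantile normalization, the mean of all probe sets, probe sets that may bind several transcripts left out, and each array or litter left out. Over all probe sets the count was 0 to 2 when arrays or litters were left out and 0 otherwise; the unadjusted count was 740. The replicate block changed no call between genotypes. The median log2 difference of the genes ran from -0.0013 to 0.059 with arrays or litters left out. Fkbp14 reversed, to -0.11, with the mean of its probe sets. For the litters, 109 probe sets and 3 genes were called, against 30 and 1 without the filter, 10 to 286 and 0 to 4 with arrays or litters left out. Of the pairs, 1 passed; it was 2 with quantile normalization and when probe sets were averaged, and 0 to 1 with arrays or litters left out, where fewer arrays also allow fewer small p-values. As deviations from litter means (replicate block) the pair Trib3 and Asns had r = 0.60, with no test. The median r of ATF4 targets was 0.054 to 0.75 with arrays or litters left out. That of all pairs of the 37 genes, 0.19, was 0.096 with the mean of all probe sets and 0.16 to 0.26 with arrays or litters left out. The causes were not tested. Dim probe sets, such as the second ones of Pdia4 and Fkbp14, limit what the means over probe sets can show.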
